A study of Rattus norvegicus with 18 samples.

Results

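A set of 10 genes is described here as the fatty acid oxidation enzymes: the carnitine shuttle genes Cpt1a and Cpt2, the acyl-CoA dehydrogenase genes Acadm, Acadl and Acadvl, the trifunctional protein genes Hadha and Hadhb, and Hadh, Eci1 and Decr1. They were chosen by symbol in the platform annotation, where 15 probe sets name only 1 of them each, and each gene was read from its brightest probe set by the mean over 18 arrays. All 10 were among the 9149 genes tested, and each of the 10 chosen probe sets lay above log2 4, the level taken here as background, in all 18 arrays. RNA came from NRK-52E cells, an established epithelial line from rat kidney proximal tubule (genotype given as Osborne-Mendel), grown to confluence with fetal calf serum. In all, 6 groups of 3 arrays were compared: cells exposed to the organochlorine fungicide chlorothalonil (1.1 µM, dissolved in 0.1% DMSO) and control cells given 0.1% DMSO alone, each sampled after 6, 24 or 72 h. The labels give the dose as the IC10 at 72 h and the arrays of a group as biological replicates. All come from 1 cell line, and the p-values measure the spread between these cultures.

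Mitochondrial fatty acid oxidation cuts acyl chains into acetyl-CoA. Long chains enter the mitochondrion as carnitine esters through CPT1A, CPT2 and a carrier between them, and then pass repeatedly through a dehydrogenase, a hydratase, another dehydrogenase and a thiolase. Chains with double bonds also need an isomerase and a reductase. In the kidney the proximal tubule relies on this pathway for much of its ATP, and nuclear receptors of the PPAR family are known to drive many of its genes.

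Values are GCRMA log2 expression as the authors deposited it, and changes are differences of log2 group means. Replicate arrays correlated at 0.992 to 0.998 over the genes tested. Of 15 proximal tubule markers on the array, 4 (Aqp1, Ggt1, Mme and Enpep) passed log2 4 in at least 3 arrays, while Lrp2, Cubn, Slc34a1, Slc5a2 and Hnf4a did not, so few markers of the labelled cell type were detected. Of 9 mesenchymal markers, 5 passed, among them Vim and Col1a1, while Pdgfra, Pdgfrb, Dcn and Lum did not. Of 4 leukocyte markers only Cd68 passed. Spiked poly-A control transcripts had a mean log2 level of 8.26 to 9.44 in DMSO arrays and 9.57 to 10.23 in treated arrays. The median treatment change over all genes was −0.01, 0.06 and 0.07 at the 3 times as deposited, and −0.56, −0.89 and −0.53 once each array was scaled to these controls. Without DMSO replicate 1 at 24 h, the array with the lowest control level, the 24 h median was −0.51. The sources used here do not state how the amount of added control RNA was set, so this scale is an alternative only. Scaling to the controls shifts all genes of an array alike. Relative to the medians of all genes, the members' treatment changes thus differ from the deposited ones only by the deposited medians, 0.07 at most. A value marked poly-A below is the change on that scale, and it is given wherever a called treatment change turned sign there. In bulk RNA, fewer cells of a kind and less RNA per cell cannot be told apart.

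The pathway did not move as a block under chlorothalonil. The entry enzyme Cpt1a and the medium-chain dehydrogenase Acadm were lower than in DMSO at all 3 times, Cpt1a at 24 h by its brighter probe set alone. Acadl and Acadvl, the dehydrogenases for long and very long chains, were higher at all 3 times. The isomerase Eci1 was higher at 6 h, lower at 24 h and higher again at 72 h. By limma (adjusted p under 0.05), 3 members rose and 5 fell at 6 h, where 59.6% of all genes were called, 27.8% higher and 31.8% lower. At 24 h the count was again 3 higher and 5 lower, against 70.1% of all genes (39.1% higher, 31.1% lower), and at 72 h it was 4 higher and 2 lower, against 64.3% (37.2% higher, 27.0% lower). These shares of 8, 8 and 6 of 10 lie near the background. Of all genes called, 46.7%, 55.7% and 57.9% were higher at the 3 times, against 7.08%, 5.76% and 10.4% on the poly-A scale. There no member was called higher and 5, 9 and 4 were called lower by limma, beside 3489, 5860 and 3360 of the 9149 genes. Without DMSO replicate 1 at 24 h, the poly-A scale gave 1 member higher and 6 lower at 6 h, 7 lower at 24 h and 6 lower at 72 h, and 15.2% of the genes called at 24 h were higher. Over all genes, 5479, 4569 and 5105 were then called lower at the 3 times. The median size of the members' change was 0.52, 0.41 and 0.29 at the 3 times, beside 0.34, 0.46 and 0.38 over all genes, and their median signed change was −0.15, −0.23 and −0.03. Called at all 3 times were 5 members and 30.2% of all genes. The 2 members lower throughout (Cpt1a as read by its brighter probe set) and the 2 higher throughout stand beside 7.40% and 10.1% of all genes. The 2 called in both directions (Eci1 and Decr1) stand beside 25.4%.

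**Figure D1:**
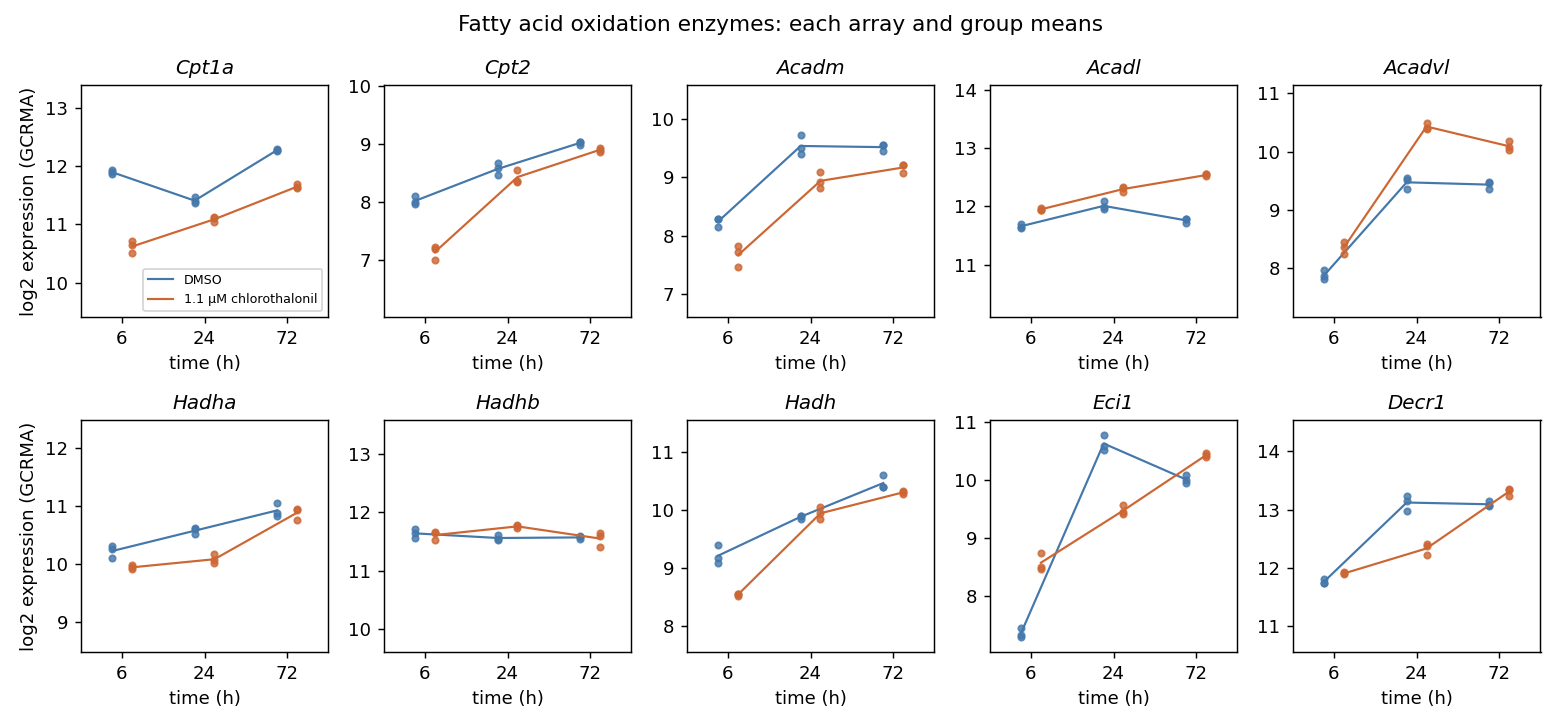
Log2 expression (GCRMA) of the 10 members against time in h, evenly spaced, in cells given DMSO (blue) or 1.1 µM chlorothalonil (orange). Points are the 3 arrays of a group, lines join group means, and every panel spans the same number of log2 units. Treated Cpt1a and Acadm lie under DMSO at each time and treated Acadl and Acadvl over it on the deposited scale (scaled to poly-A controls, Acadl is lower at 6 and 24 h and Acadvl at 6 h), and Eci1 crosses DMSO between times.

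Cpt1a encodes the outer-membrane enzyme that loads long-chain acyl groups onto carnitine, the step that limits their entry. At 6 h its log2 levels were 11.91, 11.86 and 11.93 in DMSO and 10.72, 10.64 and 10.51 after chlorothalonil. At 24 h they were 11.47, 11.37 and 11.40 in DMSO and 11.04, 11.12 and 11.11 in treated cells, and at 72 h 12.27, 12.29 and 12.28 against 11.63, 11.69 and 11.64. All treated arrays lay below all DMSO arrays at each time, and no 2 of the 6 groups overlapped. Cpt1a was thus 2.42-fold lower at 6 h (log2 change −1.28, SE 0.056, limma adjusted p = 2.36e-10), 1.25-fold lower at 24 h (−0.33, adjusted p = 0.000103) and 1.54-fold lower at 72 h (−0.63, adjusted p = 1.81e-07). The treatment effect was smaller at 24 h than at 6 h by 0.95 (SE 0.080, adjusted p = 1.59e-07). In the order of its levels, DMSO at 72 h stood highest at 12.28 ± 0.0081 (mean ± SD, n = 3), followed by DMSO at 6 h, treated at 72 h, DMSO at 24 h, treated at 24 h and treated at 6 h at 10.62 ± 0.11.

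The other Cpt1a probe set, dimmer and also above background in all 18 arrays, differed in its course. It was lower in treated cells at 6 h (−1.04, limma adjusted p = 0.000197) and at 72 h (−0.51, adjusted p = 0.0245), but at 24 h its change was −0.07 (adjusted p = 0.739), with treated arrays at 8.39, 8.70 and 8.54 among DMSO arrays at 8.73, 8.48 and 8.64. From 6 to 24 h in DMSO it changed by −0.83 (limma adjusted p = 0.000901), beside −0.48 for the brighter one. In treated cells over that span it changed by 0.14 (adjusted p = 0.549), beside 0.47. After 24 h it went the opposite way. From 24 to 72 h it fell by 0.72 in treated cells (adjusted p = 0.00258), where the brighter probe set rose by 0.57. In DMSO over the same span it changed by −0.28 (adjusted p = 0.201), where the brighter one rose by 0.87. The lower level at 6 and 72 h was thus read by both probe sets, and the one at 24 h and the rise after 24 h by the brighter alone. With the mean of the probe sets the 24 h change was −0.20 and not called (limma adjusted p = 0.113).

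**Figure D2:**
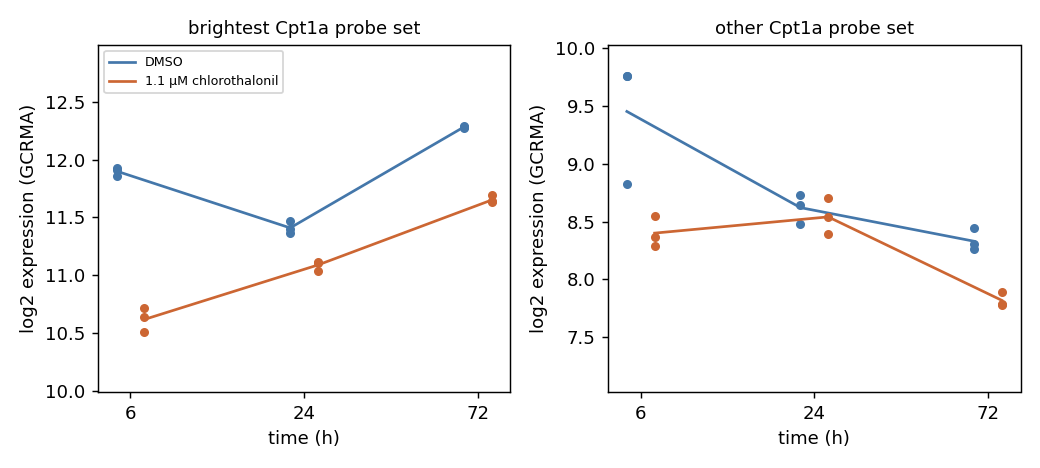
Log2 expression (GCRMA) of the 2 Cpt1a probe sets against time in h, evenly spaced, in DMSO (blue) and 1.1 µM chlorothalonil (orange). Points are the 3 arrays of a group and lines join group means. The brighter set climbs after 24 h in both groups, to 12.28 and 11.65, while the other declines to 8.33 and 7.82.

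Over the 18 arrays, the genes outside the members with the profile most like that of Cpt1a were Kat6a (Pearson r = 0.983), Ncoa1 (0.983), Tmem121 (0.981), Plekhg3 (0.980) and Tbc1d14 (0.975). These correlations describe arrays that share their groups. The log2 change of Kat6a, an acetyltransferase of histones, was −1.26 at 6 h, −0.47 at 24 h and −0.46 at 72 h, and that of Ncoa1, a coactivator of nuclear receptors, was −1.29, −0.47 and −0.63.

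Cpt2, the inner-membrane enzyme that returns the acyl group to CoA, was called lower at 6 h and not at the later times. Its levels at 6 h were 8.10, 7.96 and 8.01 in DMSO and 7.22, 7.19 and 7.0 in treated cells, which is 1.85-fold lower (−0.89, SE 0.076, limma adjusted p = 1.49e-07). The groups were well apart at 6 h and overlapped at 24 h. At 72 h all treated arrays (8.86 to 8.93) lay below all DMSO arrays (8.98 to 9.03). The change was −0.14 (95% interval −0.31 to 0.02, adjusted p = 0.101) at 24 h and −0.12 (−0.28 to 0.04, adjusted p = 0.186) at 72 h. The effect differed from that at 6 h by 0.74 at 24 h (adjusted p = 2.69e-05) and by 0.77 at 72 h (2.23e-05). Leaving out replicate 2 of the treated 24 h arrays gave a called fall at 24 h (−0.21, adjusted p = 0.0258), as did leaving out replicate 3 of the DMSO 24 h arrays (−0.20, adjusted p = 0.0434). On the poly-A scale it was also called lower at 24 h (−1.09, adjusted p = 0.00081) and 72 h (−0.72, adjusted p = 0.0448).

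Among the acyl-CoA dehydrogenases, which take the opening oxidation step of each round, members changed in different directions. Acadvl, for very long chains, stood at 7.80, 7.86 and 7.96 in DMSO and 8.36, 8.45 and 8.23 in treated cells at 6 h. At 24 h it stood at 9.51, 9.35 and 9.55 against 10.41, 10.49 and 10.38, and at 72 h at 9.35, 9.46 and 9.48 against 10.02, 10.07 and 10.18. The treated arrays were the higher ones at every time with no overlap. The rise was 1.39-fold at 6 h (0.47, SE 0.074, limma adjusted p = 6.1e-05, poly-A −0.07), 1.94-fold at 24 h (0.96, adjusted p = 2.27e-08, poly-A 0.01) and 1.58-fold at 72 h (0.66, adjusted p = 1.89e-06, poly-A 0.06). None of these poly-A changes was called.

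Acadl, for long chains, stood at 11.64, 11.63 and 11.70 in DMSO against 11.94, 11.98 and 11.94 in treated cells at 6 h. At 72 h it was at 11.72, 11.78 and 11.78 against 12.52, 12.55 and 12.55, the widest gap of the 3 times. Treated arrays were above DMSO arrays throughout. Acadl rose by 0.29 at 6 h (SE 0.050, limma adjusted p = 0.000145, poly-A −0.26, there not called) and by 0.29 at 24 h (adjusted p = 9.59e-05). On the poly-A scale the 24 h change was −0.66 and called lower by limma (adjusted p = 0.0452). At 72 h Acadl rose by 0.78, or 1.72-fold (adjusted p = 5.35e-09, poly-A 0.18, there not called). Its effect was larger at 72 h than at 24 h by 0.49 (adjusted p = 3.48e-05).

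Acadm, for medium chains, went the other way. Its levels were 8.29, 8.14 and 8.28 in DMSO and 7.82, 7.45 and 7.72 in treated cells at 6 h, and 9.73, 9.51 and 9.40 against 8.81, 9.09 and 8.92 at 24 h. At 72 h DMSO arrays lay at 9.56, 9.45 and 9.55 and treated arrays at 9.07, 9.21 and 9.21. Treated arrays were lower without overlap at each time. Acadm fell by 0.57 (SE 0.10, limma adjusted p = 0.000215), by 0.61 (adjusted p = 8.64e-05) and by 0.35 (adjusted p = 0.00758), and the differences between these effects were not called (adjusted p = 0.153 to 0.85). Within an array, Acadvl minus Acadm was higher in treated cells by 1.05, 1.56 and 1.01 at the 3 times, and Acadl minus Acadm by 0.86, 0.90 and 1.13, all without overlap between groups. Averaged over the times these differences were 1.21 and 0.96 (exact permutation within times, two-sided, p = 0.00025 each, the smallest that 8000 permutations allow, or 0.000375 adjusted over 3 pairs). Groups that do not overlap at any of the times, all in the same direction, give this smallest p whatever the size of the gap. The pairs were chosen with their values known, which the adjustment over 3 pairs does not cover. A difference within an array is the same whatever factor scales the whole array, so it is the same on the poly-A scale.

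Hadha and Hadhb encode the alpha and beta subunits of the mitochondrial trifunctional protein, which carries out the hydratase, dehydrogenase and thiolase steps for long chains. They are neighbours that start in opposite directions from a shared stretch of DNA. By the RefSeq gene table of rat assembly GRCr8, Hadhb ends its span at chromosome 6 position 31907557 on the minus strand and Hadha begins at 31907801 on the plus strand, which leaves 243 bases between them. That interval is shown because both genes start beside it and their levels did not move alike; it is RefSeq sequence, 5′ to 3′ on the strand of Hadha, chr6:31907558-31907800, with capitals marking the GC box GGGCGG on either strand.

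Hadha-Hadhb interval: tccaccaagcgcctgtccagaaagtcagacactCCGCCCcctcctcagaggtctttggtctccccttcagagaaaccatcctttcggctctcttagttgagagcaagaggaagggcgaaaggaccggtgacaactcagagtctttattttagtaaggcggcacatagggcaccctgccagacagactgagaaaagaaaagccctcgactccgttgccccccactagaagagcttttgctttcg

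The interval holds 1 match to GGGCGG, on the minus strand, and none to the nuclear receptor half-site AGGTCA or to CCAAT. On both strands, 30.2% of 33469 RefSeq windows of 243 bases before a gene start hold GGGCGG, 13.7% hold AGGTCA and 33.5% hold CCAAT.

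Hadha levels at 24 h were 10.62, 10.60 and 10.51 in DMSO and 10.17, 10.01 and 10.06 in treated cells. Hadhb levels at the same time were 11.61, 11.54 and 11.53 in DMSO and 11.76, 11.78 and 11.74 in treated cells. The treated arrays were thus the lower ones for Hadha and the higher ones for Hadhb, with no overlap in either. Hadha fell by 0.50 at 24 h (SE 0.076, limma adjusted p = 2.95e-05) and by 0.28 at 6 h (adjusted p = 0.00544). Its change at 72 h was −0.04 (95% interval −0.20 to 0.12). Hadhb rose by 0.20 at 24 h (SE 0.066, adjusted p = 0.0121), but on the poly-A scale it was called lower there (−0.74, limma adjusted p = 0.023). It had changes of −0.03 at 6 h and −0.02 at 72 h, with intervals of −0.17 to 0.11 and −0.16 to 0.12. Over the 6 groups the means of Hadha spanned 0.98 and those of Hadhb 0.21, the narrowest of the members. Hadha minus Hadhb within an array was lower in treated cells by 0.25 at 6 h and by 0.70 at 24 h, without overlap, and by 0.02 at 72 h, where groups overlapped. The mean over times, −0.32, had p = 0.0055 by the exact permutation test within times (also 0.0055 adjusted over 3 pairs). This pair too was chosen with its values known, which the adjustment does not cover.

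**Figure D3:**
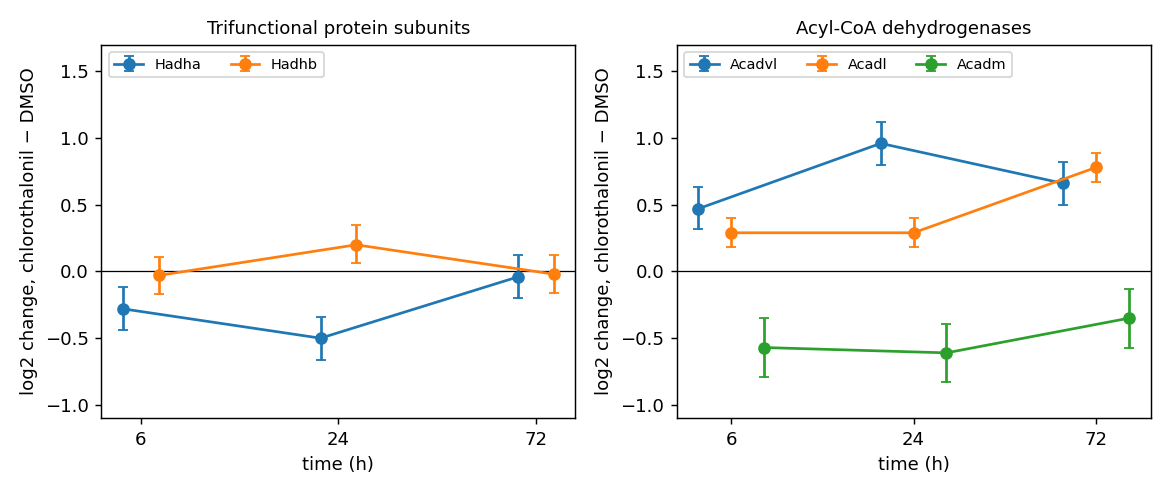
Log2 change, chlorothalonil minus DMSO, against time in h, evenly spaced, for the trifunctional protein genes (left) and the acyl-CoA dehydrogenase genes (right); bars are 95% intervals from limma with 3 arrays a group. Hadha and Hadhb part at 24 h (−0.50 and 0.20), and Acadvl and Acadl lie above 0 while Acadm lies below it at each time; scaled to poly-A controls, Hadhb at 24 h, Acadl at 6 and 24 h and Acadvl at 6 h turn to below 0.

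Hadh, the matrix dehydrogenase for hydroxyacyl-CoA of medium and short chains, was called lower at 6 h. Its levels there were 9.17, 9.39 and 9.09 in DMSO and 8.56, 8.55 and 8.51 in treated cells, without overlap. It fell by 0.68 (SE 0.078, limma adjusted p = 2.96e-06). At 24 h the change was 0.05 (95% interval −0.11 to 0.22, adjusted p = 0.546, poly-A −0.89 and called) and at 72 h −0.16 (−0.32 to 0.01, adjusted p = 0.0918, poly-A −0.76 and called). Groups overlapped at 24 h, and at 72 h all treated arrays (10.27 to 10.33) lay below all DMSO arrays (10.39 to 10.59). The effect differed between 24 and 6 h by 0.73 (adjusted p = 4.19e-05). At 72 h it was called lower without DMSO replicate 2 of the 6 h arrays (adjusted p = 0.0477), the array with the lowest weight of the 18 (0.341). Over the 18 arrays the profile of Hadh was closest to that of Cpt2 (r = 0.98), and both followed Acadm (0.91 and 0.92). These are descriptions over arrays that share their groups.

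Eci1 encodes the enoyl-CoA isomerase that shifts double bonds of unsaturated chains, and it had the widest span of group means among the members, 3.26. At 6 h its levels were 7.45, 7.34 and 7.31 in DMSO and 8.75, 8.48 and 8.50 in treated cells. At 24 h DMSO arrays had gone to 10.77, 10.52 and 10.59 and treated arrays to 9.57, 9.46 and 9.41, and at 72 h they stood at 10.00, 9.95 and 10.09 against 10.39, 10.46 and 10.44. No groups overlapped, and the treated arrays were the higher ones at 6 and 72 h and the lower ones at 24 h. Eci1 was 2.32-fold higher at 6 h (1.21, SE 0.082, limma adjusted p = 1.41e-08), 2.21-fold lower at 24 h (−1.15, adjusted p = 9.04e-09) and 1.33-fold higher at 72 h (0.42, adjusted p = 0.000417, poly-A −0.19). On the poly-A scale the rise at 6 h was 0.66 with an adjusted p = 0.0655.

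The change of the Eci1 effect was −2.36 from 6 to 24 h (SE 0.12, limma adjusted p = 1.11e-09) and 1.56 from 24 to 72 h (adjusted p = 4.94e-08). In DMSO the gene rose 9.56-fold between 6 and 24 h and then fell by 0.61. In treated cells it rose 1.87-fold and then 1.93-fold, to 10.43 ± 0.033 (mean ± SD, n = 3) at 72 h. That lay below the 10.63 ± 0.13 of DMSO cells at 24 h, without overlap. The probe set read for Eci1 is of the Affymetrix design that may pick up similar transcripts as well, and the other Eci1 probe set stayed below log2 4 in all 18 arrays, so it gives no check.

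Decr1, the dienoyl-CoA reductase, which also serves unsaturated chains, followed Eci1 over the arrays (r = 0.93). Its 24 h levels were 13.24, 12.98 and 13.14 in DMSO and 12.22, 12.38 and 12.40 in treated cells, all of the latter lower. Decr1 fell by 0.78 at 24 h, or 1.72-fold (SE 0.069, limma adjusted p = 8.27e-08), and rose by 0.22 at 72 h (adjusted p = 0.0119, poly-A −0.38). At 6 h the change was 0.14 (95% interval −0.00 to 0.29, adjusted p = 0.0869, poly-A −0.41), and with array weights it was called higher (0.16, adjusted p = 0.0227). The effect at 24 h lay below that at 6 h by a log2 difference of −0.93 (adjusted p = 1.28e-06).

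The 250 bases before the RefSeq start are shown for Eci1, the member with the widest span of group means. They are also shown for Acadm and Hadh, correlated at 0.91 over the arrays, with treatment changes of −0.61 and 0.05 at 24 h. They are RefSeq sequence of GRCr8, 5′ to 3′ on each gene's own strand: Eci1 at chr10:13961000-13961249 (plus), Acadm at chr2:245542865-245543114 (minus) and Hadh at chr2:222504447-222504696 (minus). Capitals mark GGGCGG and AGGTCA on either strand.

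Eci1: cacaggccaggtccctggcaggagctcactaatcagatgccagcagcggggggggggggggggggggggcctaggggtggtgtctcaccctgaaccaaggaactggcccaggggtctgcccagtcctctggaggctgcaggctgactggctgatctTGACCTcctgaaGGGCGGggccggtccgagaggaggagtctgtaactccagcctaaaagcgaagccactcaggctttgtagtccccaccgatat

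Acadm: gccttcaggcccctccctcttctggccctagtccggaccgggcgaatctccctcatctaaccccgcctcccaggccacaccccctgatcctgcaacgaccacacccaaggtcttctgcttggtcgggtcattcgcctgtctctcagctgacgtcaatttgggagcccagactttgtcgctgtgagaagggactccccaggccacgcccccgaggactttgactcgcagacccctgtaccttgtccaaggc

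Hadh: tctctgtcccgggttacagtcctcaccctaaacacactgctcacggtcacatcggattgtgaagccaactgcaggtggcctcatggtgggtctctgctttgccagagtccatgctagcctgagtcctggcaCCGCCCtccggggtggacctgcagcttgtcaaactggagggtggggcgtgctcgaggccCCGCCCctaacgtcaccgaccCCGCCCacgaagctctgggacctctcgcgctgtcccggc

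Eci1 holds 1 match to AGGTCA, on the minus strand, and 1 to GGGCGG. Hadh holds 3 matches to GGGCGG and Acadm none to either. None of the 3 windows holds CCAAT or a direct repeat of the AGGTCA half-site with 1 base between, the PPAR type of element. Of all 33469 windows of 250 bases, 14.1% hold AGGTCA, 30.5% GGGCGG, 34% CCAAT and 0.0508% the repeat. Windows were matched for 8 of the 10 members, all but Acadl and Decr1.

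**Figure D4:**
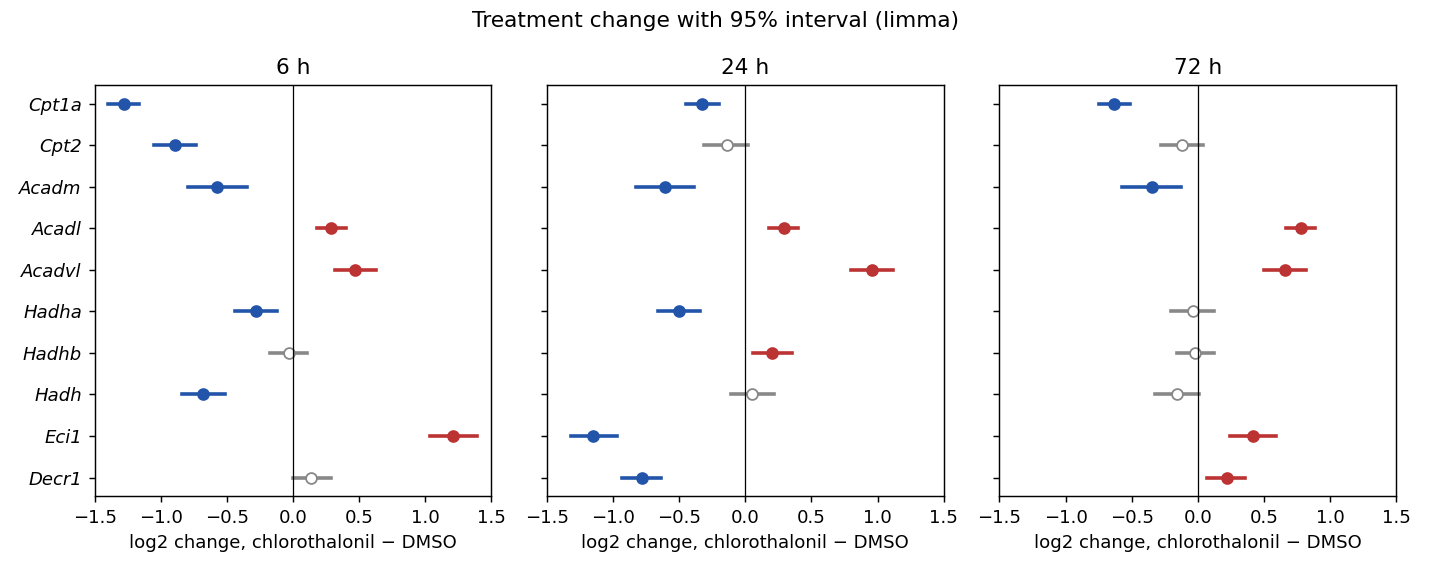
Log2 change of each member, chlorothalonil minus DMSO, at 6, 24 and 72 h, with 95% intervals from limma (3 arrays a group). Red marks genes called higher, blue lower, and open grey points those with adjusted p of 0.05 or more. Members lie on both sides of 0 at each time; scaled to poly-A controls, called rises of Acadl (6 and 24 h), Acadvl (6 h), Hadhb (24 h), Eci1 and Decr1 (72 h) turn below 0.

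On the deposited scale, most of these genes were higher at 24 h than at 6 h, in DMSO and in treated cells. Time and anything else that differed between the harvests cannot be told apart. Between 6 and 24 h in DMSO, 8 members rose and 1, Cpt1a, fell, where 72.9% of all genes were called, 32.9% higher and 40.0% lower. The median change of the members was 0.61, against −0.054 over all genes. After Eci1 the largest rises were those of Acadvl (1.60, 3.03-fold), Decr1 (1.36, 2.56-fold) and Acadm (1.31, 2.48-fold), each with the 3 arrays of 24 h above those of 6 h. On the poly-A scale 6 rose and none fell, by limma (4 and 1 without DMSO replicate 1 at 24 h). The share of higher genes among all called was 45.1%, against 60.7% on the poly-A scale (31.2% without DMSO replicate 1 at 24 h) and 34.7% with arrays centred on their median. In treated cells over the same span 8 rose and none fell by limma (Hadha had 0.13, adjusted p = 0.146, and Hadhb 0.15, adjusted p = 0.0619), beside 59.5% of all genes called, 34.6% higher and 24.9% lower. There Acadvl rose 4.24-fold, Hadh 2.64-fold, Cpt2 2.45-fold and Acadm 2.42-fold. On the poly-A scale 4 rose and none fell by limma, and the share of higher genes among all called went from 58.1% to 37.1%.

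From 24 to 72 h in DMSO the median change of the members was −0.01. Over this span 4 members rose (Cpt1a by 0.87, Hadh by 0.58, Cpt2 by 0.44 and Hadha by 0.34) and 2 fell (Eci1 by 0.61 and Acadl by 0.25), beside 60.7% of all genes called, 36.3% higher and 24.3% lower. In treated cells 7 rose and 2 fell, beside 72.9% of all genes, 39.5% higher and 33.3% lower. The largest of these rises were Decr1 (0.98, 1.97-fold), Eci1 (0.95) and Hadha (0.80, 1.74-fold), and the falls were Acadvl (by 0.34) and Hadhb (by 0.21). Without treated replicate 1 at 72 h the fall of Hadhb was not called (−0.14, adjusted p = 0.0529). On the poly-A scale 1 member was called in DMSO over this span, and it fell (4 rose without DMSO replicate 1 at 24 h). In treated cells 4 rose. The share of higher genes among all called went from 59.9% to 35.4% in DMSO (77.5% without that array) and from 54.2% to 69.7% in treated cells.

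The treatment effect itself differed between 24 and 6 h in 7 of 10 members (63.0% of all genes), between 72 and 24 h in 6 (57.6%) and between 72 and 6 h in 5 (59.0%). On the poly-A scale Eci1 and Decr1 alone were called between 24 and 6 h and again between 72 and 24 h, and no member between 72 and 6 h by limma (2 without DMSO replicate 1 at 24 h). Among all genes called, the share higher went from 62.9% to 21.3% in the comparison of 24 with 6 h and from 48.4% to 82% in that of 72 with 24 h, but to 58.2% and 49.4% without that array. These comparisons share arrays with each other and with the ones before.

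Mean levels of marker lists differed between treated and DMSO arrays. That of the 9 mesenchymal markers was higher in treated arrays at 6 h (6.34 to 6.43 against 6.03 to 6.17) and lower at 24 h (5.85 to 5.95 against 6.29 to 6.33) and 72 h (6.67 to 6.80 against 7.32 to 7.54). Of these 9, Pdgfra, Pdgfrb, Dcn and Lum did not pass log2 4 in at least 3 arrays. The mean of the 8 epithelial markers was higher in treated arrays at 6 h (5.86 to 5.97 against 5.76 to 5.77) and 24 h (5.89 to 6.01 against 5.72 to 5.82). Its ranges met at 72 h (5.67 to 5.73 against 5.63 to 5.67). Of these 8, only 3 (Krt8, Ocln and Tjp1) passed log2 4 in at least 3 arrays, and Epcam and Cdh1 were among those that did not. The 4 leukocyte markers had a mean above log2 4 in treated arrays at 72 h alone (4.36 to 4.61 against 2.90 to 3.12), and Ptprc, which defines leukocytes, did not pass log2 4 in 3 arrays. The mean of the 3 podocyte markers was lower in treated arrays at 24 h (4.23 to 4.32 against 4.37 to 4.61) and 72 h (4.57 to 4.68 against 4.76 to 4.79). Of these, Synpo alone passed log2 4 in 3 arrays, and Nphs1 and Podxl did not. The means of the proximal tubule, endothelial and distal nephron lists lay under log2 4 in every group, so no shift is read from them. The part of these lists in the members' changes was not tested.

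Other genes of fatty acid oxidation and of steps linked to it were taken from 5 lists of 88 genes in all, of which 59 were tested. At 6 h 9 were higher and 26 lower, at 24 h 11 and 31, and at 72 h 18 and 20. Over all genes tested, 27.8% were higher and 31.8% lower at 6 h, 39.1% and 31.1% at 24 h, and 37.2% and 27.0% at 72 h. Of 11 further genes of activation and the carnitine shuttle, 1 rose and 5 fell at 6 h, 3 rose and 6 fell at 24 h, and 5 rose and 3 fell at 72 h. Slc25a20, the carnitine carrier between CPT1A and CPT2, changed by 0.08 and 0.07 at 6 and 24 h (limma adjusted p = 0.27 and 0.287) and rose by 0.17 at 72 h (adjusted p = 0.0186). Acsl1, which activates long chains, had −0.05 at 6 h (adjusted p = 0.632) and rose by 0.58 at 24 h and by 0.68 at 72 h.

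Of 18 further genes of mitochondrial oxidation, 5 rose and 6 fell at 6 h, 2 rose and 9 fell at 24 h, and 5 rose and 8 fell at 72 h. Their median change at 24 h was −0.26, beside 0.057 over all genes. The list is broad. It also holds genes of amino acid breakdown (Ivd and Acad8, and in part Hsd17b10 and Acat1) and of propionate breakdown (Pcca, Pccb, Mcee and Mmut). Of these, Ivd, Hsd17b10, Acat1, Pccb, Mcee and Mmut were among those lower at 24 h. The counts and the median are thus not those of fatty acid oxidation alone. Echs1, the hydratase for short chains, fell by 0.27, 0.82 and 0.21 at the 3 times, while Acaa2, a thiolase, rose by 0.41, 0.88 and 0.25. The short-chain dehydrogenase Acads had changes of −0.09, −0.04 and −0.07 (limma adjusted p = 0.424, 0.741 and 0.557). Of the genes that pass electrons on from the dehydrogenases, Etfb rose by 0.40 at 6 h and by 0.27 at 72 h, Etfa fell by 0.23 at 24 h and by 0.27 at 72 h, and Etfdh fell by 0.34 at 6 h and by 0.36 at 72 h.

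Of 10 tested genes of peroxisomal oxidation, none rose and 4 fell at 6 h by limma, 1 rose and 7 fell at 24 h, and 2 rose and 4 fell at 72 h. Ehhadh, the peroxisomal bifunctional enzyme, was not above background in any array.

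Of 13 tested regulators, 1 rose and 8 fell at 6 h, 2 and 6 at 24 h and 2 and 3 at 72 h. The receptor gene Ppara, the coactivator gene Ppargc1a and Acacb, which makes the malonyl-CoA that inhibits CPT1A, were not above log2 4 in any of the 18 arrays. Mlycd, which breaks malonyl-CoA down, fell by 0.43 at 6 h (limma adjusted p = 0.00225), had −0.11 at 24 h (adjusted p = 0.341) and rose by 0.41 at 72 h (adjusted p = 0.00287).

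Of the genes listed as PPAR targets outside the oxidation enzymes, 7 were tested: Angptl4, Pdk4, Plin2, Acot2, Txnip, Bdh1 and Oxct1. Of these, 2 rose and 3 fell at 6 h, 3 and 3 at 24 h and 4 and 2 at 72 h. This list is broad too, and whether PPAR receptors act on each of its genes was not tested. Pdk4, a kinase that holds pyruvate dehydrogenase off, fell by 1.26 at 6 h and by 1.32 at 24 h and rose by 0.93 at 72 h. Plin2, a coat protein of lipid droplets, rose by 0.51, 1.29 and 0.81. Angptl4, an inhibitor of lipoprotein lipase, lay under log2 4 in all DMSO and treated arrays at 6 and 24 h, although it is among those called higher at 24 h (0.68, limma adjusted p = 0.0222). At 72 h it stood at 5.01 ± 0.41 in treated cells against 5.97 ± 0.17 in DMSO (mean ± SD, n = 3), a fall by 0.96 (limma adjusted p = 0.00298).

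**Figure D5:**
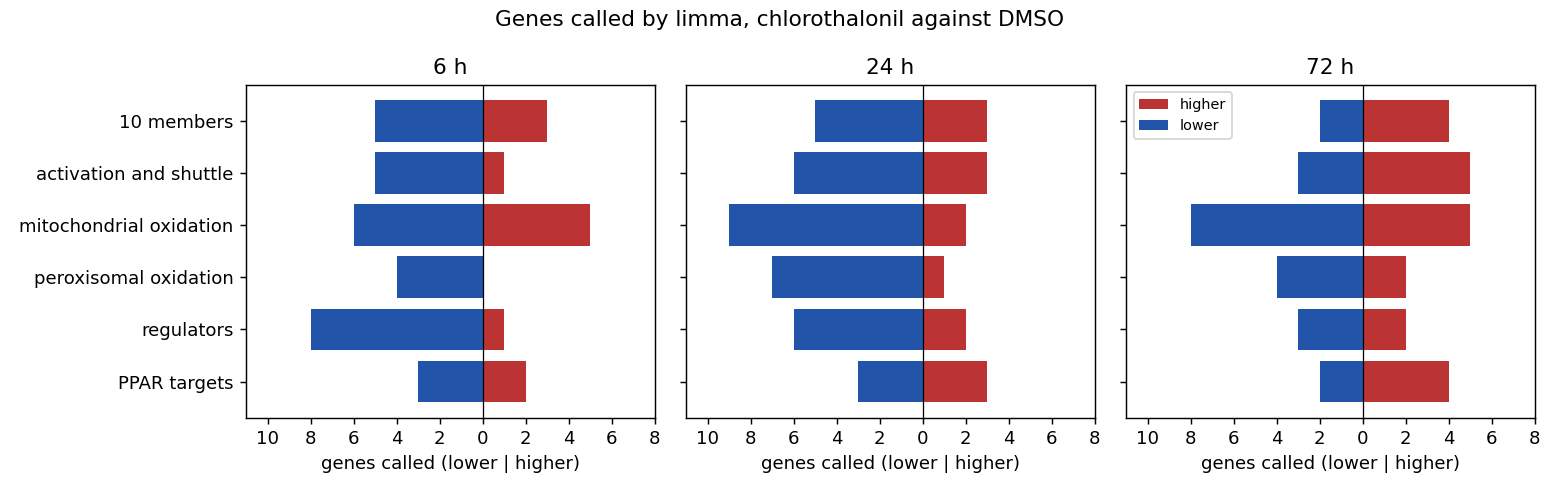
Number of genes called higher (red, right) or lower (blue, left) by limma in chlorothalonil against DMSO at 6, 24 and 72 h, for the 10 members and 5 lists of other genes of the pathway or linked to it (11, 18, 10, 13 and 7 tested, top to bottom). On the deposited scale 9 genes of the mitochondrial oxidation list, which also holds genes of amino acid and propionate breakdown, are lower at 24 h and 2 higher. Scaled to poly-A controls the 10 members give 9 lower and none higher at that time, by limma. Over all 9149 genes, 5860 are lower and 358 higher on that scale.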

How the data were processed

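Per the submitters' processing notes, the authors made the deposited log2 values with GCRMA, which models background from probe sequence, normalizes between arrays and summarises probes. The GCRMA version was not given in these sources. The table holds 31099 probe sets for 18 arrays. The platform annotation gives 1 symbol for 20832 of them, and 20764 of these were named through the Entrez identifier with the RefSeq table of GRCr8.

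A probe set was kept when above log2 4 in at least 3 arrays, and each gene was read from its brightest one, which gave 9149 genes. Limma 3.58.1 in R 4.3.3 fitted all 18 arrays together with 6 group means (12 residual degrees of freedom), two-sided, with Benjamini-Hochberg adjustment over all genes and a threshold of 0.05, for 10 comparisons. It was tested on simulated data. No set test was run. The rule for named genes took all members, 18 preset pathway genes where tested and the 5 genes most like Cpt1a. Some of the preset genes are not reported here.

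The members and lists were chosen with earlier results of these data known. Arrays give no read depth, and 3 arrays per group limit the precision. Alternatives covered the filter, scaling, probe set, variance model, array weights, samples fitted, replicate block and each array left out.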

Additional observations from a re-analysis of the deposited data

Results flagged for a closer look

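The treatment effect (chlorothalonil minus DMSO, log2) differed between times, by limma's test of the difference itself, in 18 of the tests run on members. From 6 to 24 h it changed by 0.95 for Cpt1a, 0.74 for Cpt2, 0.48 for Acadvl, 0.24 for Hadhb, 0.73 for Hadh, −2.36 for Eci1 and −0.93 for Decr1. From 24 to 72 h it changed by −0.30 for Cpt1a, 0.49 for Acadl, −0.29 for Acadvl, 0.46 for Hadha, 1.56 for Eci1 and 1.0 for Decr1. Between 6 and 72 h it changed by 0.65 for Cpt1a, 0.77 for Cpt2, 0.49 for Acadl, 0.52 for Hadh and −0.80 for Eci1. The smallest of these, Hadhb at 0.24 (adjusted p = 0.0383), was not called with the replicate number as a block (adjusted p = 0.052). Nor was it called without any 1 of 8 arrays: treated replicate 1 and DMSO replicates 1 and 3 at 6 h, and treated replicates 1, 2 and 3 and DMSO replicates 2 and 3 at 24 h (0.19 to 0.25, adjusted p = 0.0503 to 0.0979). Acadvl from 24 to 72 h was not called without any 1 of 6 arrays: treated and DMSO replicate 2 at 24 h, and treated replicates 1 and 2 and DMSO replicates 2 and 3 at 72 h (−0.28 to −0.23, adjusted p = 0.0505 to 0.0713). The Cpt1a change from 24 to 72 h was not called with the mean of its probe sets (−0.37, adjusted p = 0.0503) or with the other one (−0.44, adjusted p = 0.166), which also did not give a call between 6 and 72 h (0.53, adjusted p = 0.0986).

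Other calls were gained by leaving out 1 array. The change of the Hadhb effect from 24 to 72 h was called when 1 of these was left out: replicate 1 (treated) or 2 (DMSO) at 6 h, DMSO replicate 1 at 24 h, or treated replicate 2 or 3 at 72 h (−0.27 to −0.22, adjusted p = 0.0292 to 0.0487). That of Hadha from 6 to 72 h was called without DMSO replicate 2 at 6 h, or treated replicate 3 or DMSO replicate 2 at 72 h (0.29 to 0.30, adjusted p = 0.0266 to 0.0345). The rise of Acadm in treated cells from 24 to 72 h was called without treated replicate 2 at 6 h, treated replicate 2 or DMSO replicate 1 at 24 h, or treated replicate 1 at 72 h (0.23 to 0.30, adjusted p = 0.0257 to 0.0478). The rise of Hadhb in treated cells from 6 to 24 h was called without treated replicate 1 at 72 h (0.15, adjusted p = 0.0303).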

How the results depend on the processing

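Of 100 member changes, 72 were called, and no called one turned sign except under poly-A scaling or another choice of Cpt1a probe set. Poly-A scaling, which rests on 27 control probe sets, gave 5 members called at 6 h, 4 for treated 24 against 6 h, 1 for DMSO 72 against 24 h, 4 for treated 72 against 24 h, and 2, 2 and 0 for the differences of the effect (24 minus 6, 72 minus 24 and 72 minus 6 h) by limma. Without DMSO replicate 1 at 24 h, a setting chosen after seeing the data, the poly-A counts were 5 for DMSO and 5 for treated 24 against 6 h, and 3, 2 and 2 for the differences. Over all genes, poly-A counts were 3748 at 72 h, 3361 and 1756 for DMSO and treated 24 against 6 h, 1593 and 3268 for DMSO and treated 72 against 24 h, and 1656, 1639 and 1366 for the differences.

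Signs that turned under poly-A scaling were, at 6 h, Acadl −0.26, Acadvl −0.07 and Decr1 −0.41; at 24 h, Acadl −0.66, Hadhb −0.74 and Hadh −0.89; at 72 h, Eci1 −0.19 and Decr1 −0.38. With time they were Hadhb 0.08 (DMSO) and −0.08 (treated) and Hadha −0.10 (treated) from 6 to 24 h, and Hadhb −0.18 (DMSO) from 24 to 72 h. Among differences of the effect they were Acadl −0.40 and Hadhb −0.16 (24 minus 6 h), Cpt1a 0.05, Acadvl 0.05, Hadhb 0.12 and Hadh 0.14 (72 minus 24 h) and Hadhb −0.04 (72 minus 6 h). Quantile normalization turned Hadhb (−0.02) and Decr1 (0.00) in DMSO from 24 to 72 h. Centring turned Hadha (0.00) and Hadhb (0.03) at 72 h and Acadm (0.06) for 24 minus 6 h. Array weights turned Hadhb at 72 h (0.02) and Acadm (0.01) and Acadl (−0.00) for 24 minus 6 h. For Cpt1a from 24 to 72 h, the mean of its probe sets gave −0.08 in treated cells, and the other probe set −0.72 there and −0.28 in DMSO. The cause was not tested. Calls gained with array weights were Decr1 at 6 h (0.16), Acadm (0.23) and Hadhb (0.14) in treated cells from 24 to 72 h and from 6 to 24 h, and Acadm for 72 minus 24 h (0.33) and 72 minus 6 h (0.34).

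Leaving out each array gave 8 to 8 members called at 6 h, 8 to 9 at 24 h, 6 to 7 at 72 h, 9 to 9 and 8 to 9 for DMSO and treated 24 against 6 h, 6 to 6 and 9 to 10 for DMSO and treated 72 against 24 h, and 6 to 7, 5 to 7 and 5 to 6 for the differences. Signs turned within Hadhb at 6 h (−0.07 to 0.01) and 72 h (−0.06 to 0.05), Hadha at 72 h (−0.09 to 0.02), Acadm (−0.10 to 0.07), Hadhb (−0.01 to 0.04) and Decr1 (−0.10 to 0.03) in DMSO from 24 to 72 h, Acadm (−0.14 to 0.06) and Acadl (−0.03 to 0.04) for 24 minus 6 h, Cpt2 (−0.02 to 0.09) for 72 minus 24 h and Hadhb (−0.03 to 0.08) for 72 minus 6 h.

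Replicate numbers were not taken as pairs in the main fit. Residuals of same-numbered treated and DMSO arrays correlated at −0.044 to 0.305, and those of differently numbered ones at −0.224 to 0.213. With 3 arrays a group these values cannot decide whether the numbers mark pairs. With the replicate number as a block, 1 member call was lost (Hadhb, 24 minus 6 h, adjusted p = 0.052), and a block within each time also lost Acadvl for 72 minus 24 h (adjusted p = 0.0572).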
